A study of Arabidopsis thaliana with 9 samples.

Results

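WRKY genes encode plant transcription factors that were followed here as 7 probe sets in whole Arabidopsis thaliana roots on an F-104 flight. The members were all probe sets that the platform annotation pairs with exactly 1 gene whose symbol starts with WRKY, and they made up 7 of the 38408 probe sets of the array. They are WRKY6 (AT1G62300), WRKY20 (AT4G26640), WRKY22 (AT4G01250), WRKY29 (AT4G23550), WRKY41 (AT4G11070), WRKY42 (AT4G04450) and WRKY47 (AT4G01720), each with 1 probe set. RefSeq lists 67 genes under a WRKY symbol, so most of the family is not analysed here. Of the members, 6 lie on chromosome 4, which holds 16 of those 67, and WRKY6 lies on chromosome 1. A further 3 probe sets that list a WRKY gene together with another gene were left out.

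WRKY factors carry a conserved DNA-binding domain with a zinc finger and bind W-box elements in the promoters of their targets, among them many genes of defence, senescence and nutrient supply. In pattern-triggered immunity, immune receptors at the cell surface start a MAP kinase cascade, and WRKY22 and WRKY29 are textbook factors downstream of it. WRKY6 is known from senescence and defence, and in roots it represses the phosphate exporter gene PHO1, as does WRKY42.

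The 3 groups each held 3 arrays of the Affymetrix AraGene 1.0 ST type, hybridised with root RNA of 10-day-old seedlings. All groups, the ground control included, shared the Wassilewskija (WS) background, growth in continuous light and the pCaMV35S:14-3-3κ:GFP transgene, which drives a 14-3-3 protein fused to GFP from a constitutive viral promoter. Seedlings sat in Kennedy Space Center fixation tubes, which flood them with RNAlater when actuated. Ground seedlings were fixed on the ground during the flight. By the treatment protocol, first-actuated seedlings were fixed in the air during the low-altitude acceleration, and last-actuated seedlings after a climb at 4 g of about 30 s and a parabola with about 10 s of microgravity. A single fixation point in the air, after the return to level flight, is given in the design text of the series, so the protocol alone sets the first tube apart in time. The arrays of a group came from roots of a single tube, so p-values rest on the spread between root pools within tubes. In the main fit that spread was estimated from all 3 groups together, with information shared across probe sets. An array left out of 1 group can therefore alter the p-value between the other groups. An effect of the tube cannot be told apart from one of the condition.

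Values are the authors' RMA values on the log2 scale, where a difference of 1 is a doubling, and they carry no detection calls. Arrays of a group correlated at 0.9853 to 0.9895 over all probe sets and arrays of different groups at 0.980 to 0.987. Of 16 listed root markers only 1 was matched to a probe set of its own. It was EXPA7, an expansin gene of root hair cells, at 4.53 to 5.54 over the arrays. Of 12 listed shoot markers 2 were matched, the stomatal lineage genes FAMA and SPCH. These lay at 1.98 to 2.18 and 1.93 to 2.69, below every array median (3.27 to 3.35). With so few markers the tissue make-up was hardly checked. In whole roots, a change in the number of cells that express a gene and a change in RNA per cell cannot be told apart.

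WRKY29, WRKY22 and WRKY6 differed among the 3 groups by limma's moderated F test, and the other 4 members did not pass. WRKY29 and WRKY6 shared the order of group means, last-actuated above ground above first-actuated, while WRKY22 was lowest on the ground. The adjusted p was 0.000359 for WRKY29, 0.00699 for WRKY22 and 0.0355 for WRKY6, and lay between 0.143 and 0.821 for the others. Of all 17481 probe sets tested, 7.65% (1337) were called by that test. With only the 8740 probe sets above the median of mean log2 value tested, 1512 were called. Without ground replicate 3, or without any single in-flight array, WRKY6 lost this call (adjusted p = 0.0579 to 0.0991).

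**Figure D1:**
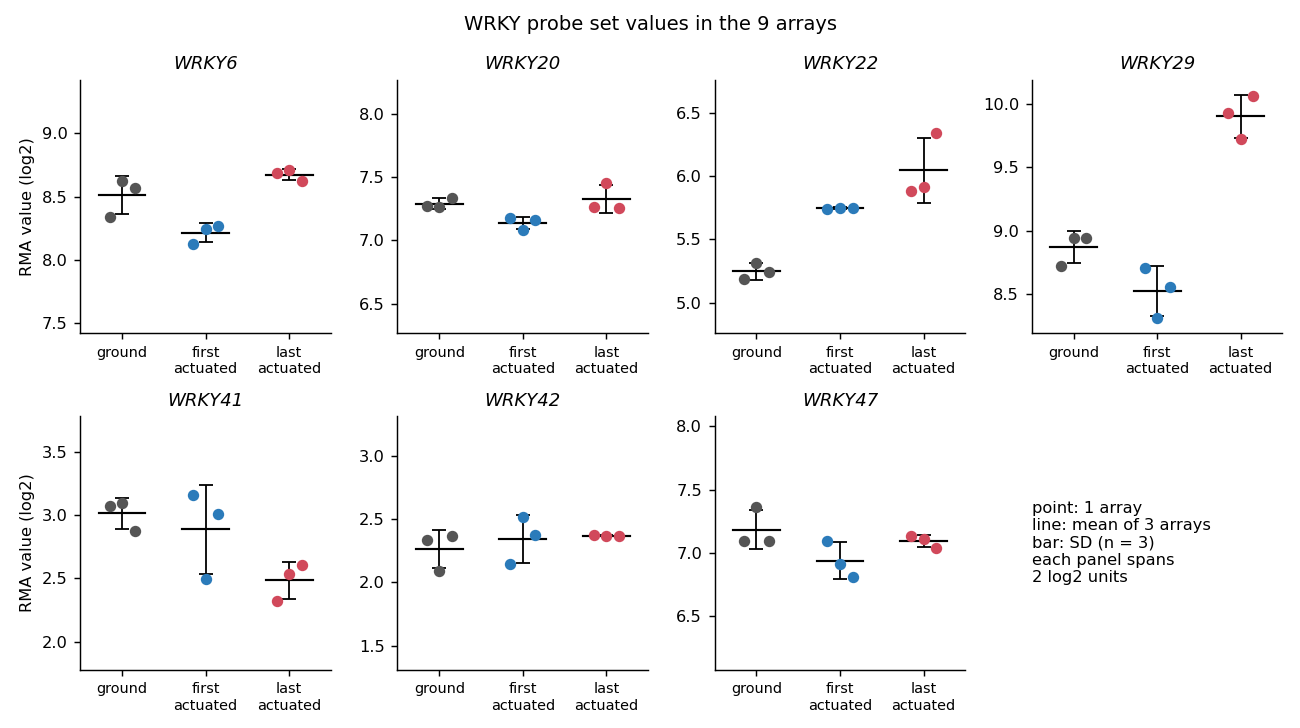
RMA values (log2) of the 7 WRKY probe sets, one panel per gene, with a point per array, the mean as a line and the SD as a bar (n = 3), by group. WRKY29 stood higher in the last-actuated arrays than in all others, WRKY22 was lowest on the ground, and WRKY6 was lowest in the first-actuated arrays.

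WRKY29, an early immune-response factor of the MAP kinase pathway, showed the largest changes among the 7 in both comparisons that involve last-actuated roots. Its log2 values were 8.72, 8.95 and 8.95 in ground roots, then 8.70, 8.31 and 8.56 in first-actuated roots and 9.93, 9.72 and 10.06 in last-actuated roots. The last-actuated arrays lay above all 6 others, whereas a gap of 0.02 separated the ground arrays from the first-actuated ones below them. The group means were 8.87 ± 0.13 on the ground, 8.52 ± 0.20 after the first and 9.90 ± 0.17 after the last actuation (SD, n = 3). Ground replicates 2 and 3 carried an identical value (8.94564).

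Against first-actuated roots, WRKY29 was higher in last-actuated roots by 1.38 ± 0.13 (SE) on the log2 scale, 2.60-fold (limma adjusted p = 0.000235, 95% confidence interval 1.09 to 1.67). By absolute size this change ranked 88 among the 17481 probe sets. Against ground, WRKY29 rose in last-actuated roots by 1.03 ± 0.13, or 2.05-fold (limma adjusted p = 0.00254), which ranked 74. In first-actuated roots it was 0.35 ± 0.13 below ground (log2 change -0.35), which did not pass (limma adjusted p = 0.180, interval -0.63 to -0.06). The order of its group means was therefore last-actuated above ground above first-actuated, with the lower neighbours not separated by the test. Leaving out any single array kept both WRKY29 calls, with changes of 1.27 to 1.47 against first-actuated roots and 0.95 to 1.12 against ground.

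WRKY22, which acts beside WRKY29 in the same pathway, was higher in both in-flight groups than on the ground. It measured 5.18, 5.32 and 5.24 in ground roots, 5.74, 5.75 and 5.75 in first-actuated roots and 5.88, 5.92 and 6.34 in last-actuated roots. No array of one group overlapped with those of another, and replicate 3 of the last-actuated roots stood highest. The means were 5.25 ± 0.07, 5.75 ± 0.01 and 6.05 ± 0.26 (SD, n = 3). First-actuated replicates 2 and 3 carried an identical value (5.75071), so the SD of 0.01 may understate the spread.

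In last-actuated roots WRKY22 rose against ground by 0.80 ± 0.12 (SE), a 1.74-fold change (limma adjusted p = 0.00751), and by 0.65 without replicate 3 of the last-actuated roots, where it was still called. In first-actuated roots it rose by 0.50 ± 0.12, or 1.41-fold, close to the threshold (limma adjusted p = 0.0438, interval 0.23 to 0.77). Both comparisons use the same ground arrays. The first-actuated call was lost when ground replicate 1, 2 or 3 was left out (adjusted p = 0.128, 0.0870 and 0.111), first-actuated replicate 1, 2 or 3 (adjusted p = 0.0841, 0.110 and 0.108) or last-actuated replicate 2 (adjusted p = 0.0556). The estimate itself stayed between 0.47 and 0.53 in those fits. The call was also lost with all 38408 probe sets tested (adjusted p = 0.0833), with arrays shifted to a common median (0.0507) and with an intensity trend and robust prior (0.0510). The last-actuated roots exceeded the first-actuated ones by 0.30 ± 0.12, which did not pass (limma adjusted p = 0.200, interval 0.03 to 0.57).

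WRKY6, the senescence and phosphate-related factor, was lowest in first-actuated roots. Its values were 8.34, 8.63 and 8.57 in ground roots, 8.13, 8.25 and 8.27 in first-actuated roots and 8.68, 8.71 and 8.63 in last-actuated roots. All first-actuated arrays lay below all others, while only a gap of 0.0022 parted the highest ground array from the lowest last-actuated array. The means were 8.51 ± 0.15, 8.21 ± 0.08 and 8.67 ± 0.04 (SD, n = 3).

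Between the in-flight groups WRKY6 was higher in last-actuated roots by 0.46 ± 0.10 (SE), or 1.38-fold (limma adjusted p = 0.0177, interval 0.25 to 0.67), at rank 1569 of 17481 by size. That call was lost without first-actuated replicate 1 (adjusted p = 0.0520), last-actuated replicate 1 (adjusted p = 0.0581) or last-actuated replicate 2 (adjusted p = 0.0631), with changes of 0.42 to 0.45, and when quantile normalization was repeated (0.37, adjusted p = 0.0518). Against ground, neither the first-actuated value (-0.30 ± 0.10, limma adjusted p = 0.120) nor the last-actuated value (0.16 ± 0.10, limma adjusted p = 0.537) passed. The root hair marker EXPA7 also had its lowest mean in first-actuated roots, with means of 5.31 ± 0.22 (ground), 4.72 ± 0.17 (first-actuated) and 5.30 ± 0.25 (last-actuated; SD, n = 3). The EXPA7 difference between the in-flight groups, 0.58 ± 0.15 (SE), just missed the threshold (limma adjusted p = 0.0527), and the part of root hair cells in the WRKY6 result was not tested.

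**Figure D2:**
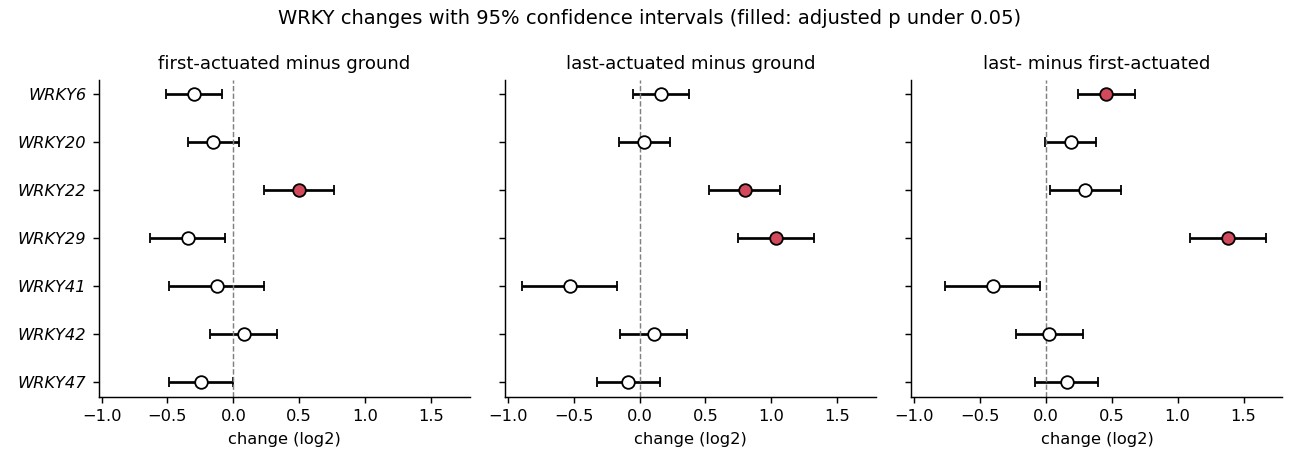
Log2 change of each WRKY probe set in the 3 comparisons, with the 95% confidence interval from limma. Filled points had an adjusted p under 0.05, namely WRKY22 in both comparisons with ground, WRKY29 in both comparisons that involve last-actuated roots, and WRKY6 between the in-flight groups.

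WRKY20 and WRKY47 passed in no comparison. WRKY20, a member of the WRKY group with a pair of WRKY domains, measured 7.27, 7.26 and 7.34 in ground roots, 7.17, 7.08 and 7.16 in first-actuated roots and 7.26, 7.46 and 7.26 in last-actuated roots. Its first-actuated arrays lay below all others, by a gap of 0.08 to the last-actuated ones. The difference between the in-flight groups was 0.19 ± 0.09 (SE, limma adjusted p = 0.271, interval -0.01 to 0.38). First-actuated roots differed from ground by -0.15 ± 0.09 and last-actuated roots by 0.04 ± 0.09.

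WRKY47, of the same structural group as WRKY6 and WRKY42, measured 7.10, 7.36 and 7.10 in ground roots, 7.10, 6.91 and 6.81 in first-actuated roots and 7.14, 7.11 and 7.04 in last-actuated roots. Ground replicates 1 and 3 and first-actuated replicate 1 carried an identical value (7.09521). The groups overlapped or touched in all 3 comparisons. Its lowest mean was again in first-actuated roots, at -0.25 ± 0.11 from ground (SE, limma adjusted p = 0.262, interval -0.49 to -0.01). The last-actuated roots were at -0.09 ± 0.11 from ground and 0.16 ± 0.11 from first-actuated roots.

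WRKY41, a regulator of seed dormancy, and WRKY42 were dim. On every array both lay under the median of that array, and the size of any change in them is uncertain. WRKY41 measured 3.07, 3.10 and 2.87 in ground roots, 3.16, 2.49 and 3.01 in first-actuated roots and 2.32, 2.53 and 2.60 in last-actuated roots. Its last-actuated arrays lay below all ground arrays, while replicate 2 of the first-actuated roots lay within the last-actuated range. The last-actuated difference from ground was -0.53 ± 0.16 (SE) and did not pass (limma adjusted p = 0.171, interval -0.89 to -0.17), and that from first-actuated roots was -0.40 ± 0.16 (limma adjusted p = 0.200). Without replicate 2 of the first-actuated roots the latter was -0.60 and passed (limma adjusted p = 0.0255).

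WRKY42, the other repressor of PHO1, measured 2.33, 2.09 and 2.36 in ground roots, 2.14, 2.51 and 2.37 in first-actuated roots and 2.38, 2.37 and 2.36 in last-actuated roots. The groups overlapped or touched throughout. Its differences from ground were 0.08 ± 0.11 (SE) for first-actuated and 0.11 ± 0.11 for last-actuated roots, and 0.03 ± 0.11 between the in-flight groups (interval -0.23 to 0.28). An interval of this width leaves room for changes of a similar size to those of WRKY20.

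Counted over the 7 members, 1 rose and 0 fell in first-actuated roots against ground, where 4.89% of all probe sets were called by limma, 2.25% higher and 2.64% lower. In last-actuated roots 2 rose and 0 fell against the same ground arrays, where 1.81% of all probe sets were called, 0.927% higher and 0.881% lower. Between the in-flight groups 2 were higher and 0 lower in last-actuated roots, where the share over all probe sets was 6.73%, with 3.58% higher and 3.15% lower. At an unadjusted p under 0.05 the members numbered 4, 3 and 4 in the same order, where 18.4%, 13.0% and 19.6% of all probe sets lay. WRKY22 alone was called above ground in both in-flight groups, as were 0.435% of all probe sets. With 7 members these counts say little about the family.

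Groups did not overlap for 4 of the 7 members in each comparison. In first-actuated roots 1 lay above ground and 3 below, with 20.4% of all probe sets not overlapping, 9.55% above and 10.9% below. For last-actuated roots against ground, 3 lay above and 1 below, with 16.6% over all, 7.68% above and 8.91% below. Between the in-flight groups all 4 were higher in last-actuated roots, namely WRKY6, WRKY20, WRKY22 and WRKY29, with 21.8% over all, 11.3% higher and 10.5% lower. The median change of the members was -0.15, 0.11 and 0.19 on the log2 scale in these comparisons, and the medians over all probe sets were 0.01, 0.00 and 0.00. The member medians of absolute change were 0.25, 0.16 and 0.30, against 0.13, 0.11 and 0.13 over all probe sets. Brightness was not matched in these comparisons with all probe sets. With only the 8740 probe sets above the median of mean log2 value tested, which hold 5 members, limma called 1053, 401 and 1311. Over all 17481 it called 855, 316 and 1177.

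**Figure D3:**
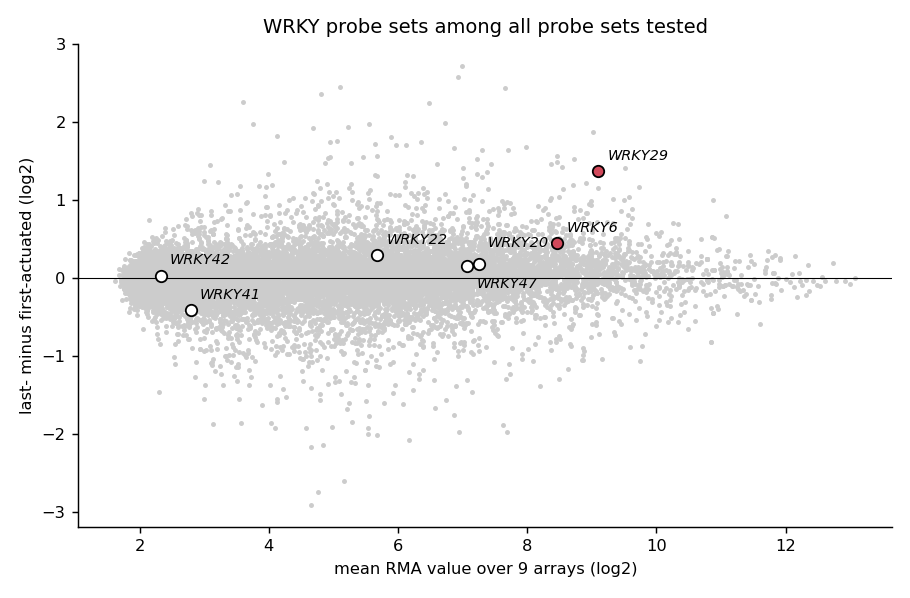
Difference between last- and first-actuated roots (log2) against the mean RMA value over the 9 arrays (log2), for the 17481 probe sets tested (grey) and the WRKY probe sets (ringed, filled where called). WRKY29, at 1.38, lies clear of the bulk of the grey points, WRKY6 lies at 0.46, and WRKY41 and WRKY42 are at the dim end.

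The 3 members called in any comparison, chosen as such after their values had been seen, were also set against each other within each array, so that a shift common to both members of a pair drops out. For WRKY29 minus WRKY22, the difference between group means on the log2 scale was -0.85 from ground to first-actuated roots, 1.08 from first- to last-actuated roots and 0.24 from ground to last-actuated roots. For this pair the groups were free of overlap in all 3 comparisons. The lowest last-actuated value (3.72) was only just above the highest ground value (3.70). For WRKY29 minus WRKY6 it was 0.92 between the in-flight groups and 0.87 from ground to last-actuated roots, without overlap, and -0.05 from ground to first-actuated roots, with overlap. For WRKY22 minus WRKY6 it was 0.79 from ground to first-actuated roots and 0.63 from ground to last-actuated roots, without overlap, and -0.16 between the in-flight groups, with overlap. Exact two-sided permutation tests over 3 against 3 arrays gave p = 0.1 for the 7 that did not overlap, the smallest value this design allows, and p = 0.7 and 0.4 for the others, with 9 comparisons and a smallest Benjamini-Hochberg value of 0.129. No pair could pass in this design, so these values are a description.

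Across the 9 arrays, which fall into 3 groups, the highest correlation between members was that of WRKY6 and WRKY29 (Pearson r = 0.81), followed by WRKY6 and WRKY20 (0.76). WRKY22 and WRKY29 correlated at 0.60 and WRKY6 and WRKY22 at 0.18. With the group means removed, WRKY6 and WRKY29 stood at 0.04 and WRKY22 and WRKY29 at 0.50. Over all pairs of members those values ranged from -0.82 (WRKY42 and WRKY47) to 0.56 (WRKY29 and WRKY41). The arrays share groups and normalization, so these values are descriptions.

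Among 16720 other probe sets with 1 gene, those most like WRKY29 over the 9 arrays were AT3G44160, AT5G25440, AT1G72416, AT4G27870 and AT5G58660, with Pearson r from 0.973 to 0.986. All 5 were higher in last- than in first-actuated roots, by 0.63 for AT3G44160, 0.70 for AT5G25440, 0.71 for AT1G72416, 0.38 for AT4G27870 and 0.90 for AT5G58660, each less than the 1.38 of WRKY29. Those least like it were AT2G28870 (r = -0.981) and AT3G21390 (r = -0.970), which were lower by log2 changes of -0.99 and -0.82 in the same comparison. Likeness over arrays of these 3 groups follows from the group profile, and the changes are given as a description.

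For WRKY6 the most like were AT3G29034 (r = 0.982), AT4G24600, AT1G78895, AT5G19110 and AT2G31730, the others at 0.953 to 0.956. Their differences between last- and first-actuated roots were 0.71, 0.74, 0.48, 0.80 and 1.55 on the log2 scale, all above the 0.46 of WRKY6. AT4G24600 and AT2G31730 were also lower than ground in first-actuated roots, at -0.56 and -0.89. The least like were AT3G56270 (r = -0.968) and AT1G56220 (r = -0.956), at -0.26 and -0.72 between the in-flight groups. AT3G56270 was dim and its change was not called (limma adjusted p = 0.112). For WRKY22, BUB3.2 (r = 0.975), AT5G58110, AT1G66510, AT1G16040 and AT3G12050 were most like, at r of 0.961 and above, with changes of 0.57, 0.85, 1.28, 1.39 and 0.55 from ground to last-actuated roots.

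**Figure D4:**
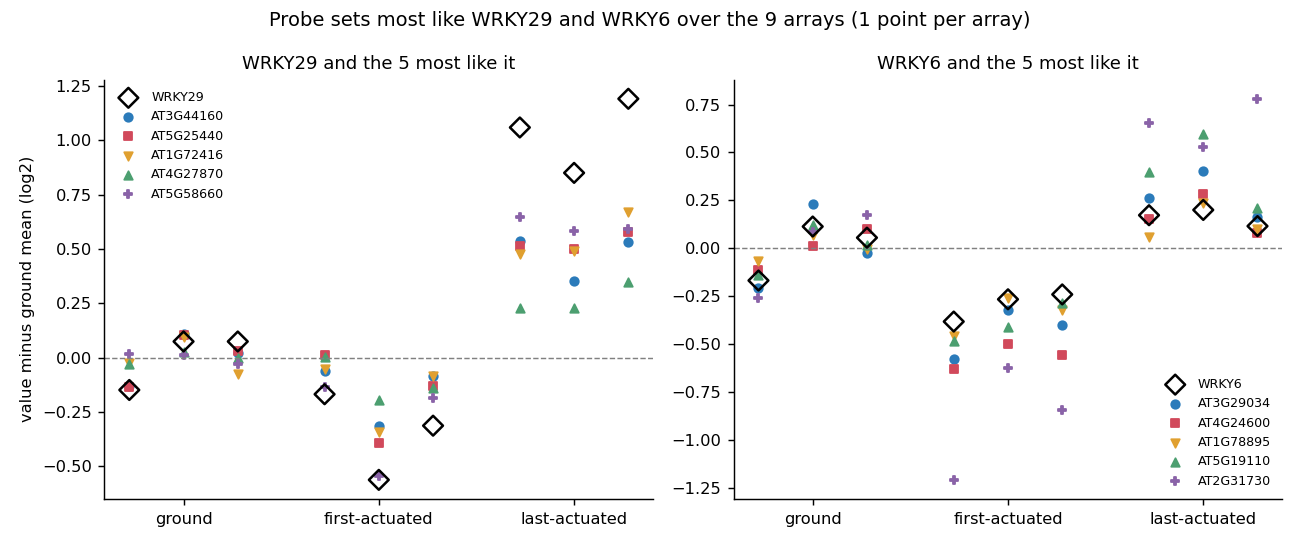
Log2 value minus the ground mean on each array for WRKY29 (left) and WRKY6 (right), as open diamonds, with the 5 probe sets most like each over the 9 arrays. WRKY29 moved further than its 5 neighbours in the last-actuated arrays, and WRKY6 differed less between the in-flight groups than each of its 5.

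The pathway around the WRKY factors was little covered. Of 129 genes in 5 lists, 7 other than members had a probe set of their own. None of these 7 was called by limma in any comparison. At an unadjusted p under 0.05 there was 1 in first-actuated roots against ground and 0 in each of the other comparisons. Over all probe sets 4.89% (first-actuated against ground), 1.81% (last-actuated against ground) and 6.73% (between the in-flight groups) were called. At an unadjusted p under 0.05 the shares were 18.4%, 13.0% and 19.6%. With 7 genes, the absence of calls says little about the pathway. Upstream of WRKY29 and WRKY22, the immune receptor gene EFR, which senses a bacterial elongation factor, was at 0.19 ± 0.11 (SE) from ground in first-actuated roots and at 0.15 ± 0.11 in last-actuated roots. Its values, 2.17 to 2.74, were below the array medians. The receptor-bound kinase gene BIK1 lay at 7.64 to 8.23 and differed from ground by -0.18 ± 0.15 and -0.07 ± 0.15.

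IKU1, a VQ motif gene whose product partners a WRKY factor in the seed, was at -0.41 ± 0.15 (SE) from ground in first-actuated roots (unadjusted p = 0.0203, limma adjusted p = 0.171) and at -0.28 ± 0.15 in last-actuated roots. The immune output genes SAG101, a partner of the defence regulator EDS1, and PDF1.2, a defensin gene, differed from ground by 0.02 to 0.16. EIN3, the ethylene pathway factor of senescence, was at -0.13 ± 0.10 and 0.03 ± 0.10 from ground, and SAG29, a sugar transporter gene of senescence, at 0.00 and 0.04. PDF1.2 and SAG29 were dim, with no value above 2.31. The list of phosphate and boron genes had no measured gene besides WRKY42, so PHO1 was not analysed here.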

How the data were processed

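Per the submitters' processing notes, the authors used RMA from the oligo package, which gave the deposited log2 values. The notes also name limma, R 4.0.0 and TAIR10. RMA as usually run sets all arrays to a common distribution, which hides any change that most transcripts share. Without detection calls, slide numbers or scan dates, neither the signal over background nor a batch was assessed here. Array medians lay between 3.27 and 3.35, and the number of arrays limits the precision.

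Genes were named through the platform annotation, with RefSeq symbols (assembly TAIR10.1). The RefSeq chromosomes and gene starts were used for the chromosome of each member and for the order of neighbouring genes. All tests were run with limma 3.58.1 under R 4.3.3, by lmFit, eBayes and a moderated F test over the 3 groups. They covered the 17481 probe sets with 1 or more genes in the annotation, with Benjamini-Hochberg adjustment over all of them, no batch term and a threshold of 0.05. The fit was also run on simulated data, with independent noise and changes placed in the first-actuated group only. No result given here rests on that run. The alternatives were another set of probe sets tested, another scaling, another prior, only the compared groups, the replicate number as a block, and each array left out. The numbers do not pair the samples, since no label ties them and the deviations of same-numbered arrays correlated at -0.119 to 0.057 over 9 pairs.

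The WRKY genes, the lists and the tests were chosen with earlier results of these data known. All WRKY members were to be named, with the 5 most and the 2 least like probe sets for WRKY29 and WRKY6, and up to 4 genes of each list. Likeness to WRKY22 was added after its values had been seen.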

Additional observations from a re-analysis of the deposited data

Results flagged for a closer look

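By group mean, WRKY29 and WRKY6 stood on opposite sides of ground in the 2 in-flight groups, and their difference between those groups was called by limma. For WRKY29 it was 1.38 on the log2 scale (adjusted p = 0.000235), from -0.35 in first-actuated to 1.03 in last-actuated roots against ground, and for WRKY6 it was 0.46 (adjusted p = 0.0177), from -0.30 to 0.16. For both genes the value below ground did not pass, so a fall is not shown. For WRKY6 the value above ground did not pass either (limma adjusted p = 0.537), so neither side of ground is shown for that gene. The comparisons share the ground arrays, which drop out of the difference. All 3 last-actuated arrays were above all 3 first-actuated arrays for both genes, with gaps of 1.02 for WRKY29 and 0.36 for WRKY6.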

How the results depend on the processing

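The change of each member, the median over the members, the F test and the counts of calls were recomputed under 8 alternatives and with each of the 9 arrays left out. The F test has no fit of only the compared groups. The within-array pairs, likeness in pattern, lists, neighbours and other families were not recomputed. The count of 2 WRKY genes called in last-actuated roots against ground, WRKY22 and WRKY29, was 2 in each of these fits, and the count of 3 in the F test ranged from 2 to 3. For first-actuated roots against ground, the count of 1 was 0 with all probe sets of the table, with arrays shifted to a common median, with an intensity trend and robust prior, and with the replicate block, where the adjusted p of WRKY22 was 0.0833, 0.0507, 0.0510 and 0.0606. It ranged from 0 to 1 when an array was left out. Between the in-flight groups the count of 2 was 1 when quantile normalization was repeated (WRKY6 at 0.37, adjusted p = 0.0518) and ranged from 1 to 3 when an array was left out. The cause of these losses was not tested. WRKY6 lost its F test call with all probe sets (adjusted p = 0.0684), with quantile normalization repeated (0.0995), with the replicate block (0.0576) and without each array except ground replicates 1 and 2 (0.0579 to 0.0991). The replicate block changed no other call of a member, and over all probe sets it gave 723, 247 and 1035 calls in place of 855, 316 and 1177.

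Signs turned in some members that were not called when 1 array was left out. In first-actuated roots against ground, WRKY42 ranged from -0.0081 to 0.18 (-0.0073 without first-actuated replicate 2) and WRKY41 from -0.26 to 0.071. In last-actuated roots against ground, WRKY20 ranged from -0.030 to 0.069 and WRKY47 from -0.13 to 0.0027. Between the in-flight groups, WRKY42 ranged from -0.073 to 0.11. Shifting the arrays to a common median moved the median of all probe sets by at most 0.04. WRKY41 and WRKY42 have no value among probe sets above the median brightness, which leaves 5 members. The lowest counts over all probe sets with 1 array left out were 549 for first-actuated roots against ground (ground replicate 1 missing), 179 for last-actuated roots against ground (last-actuated replicate 2 missing) and 724 between the in-flight groups (last-actuated replicate 3 missing).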

Other observations

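Of the 28 protein-coding genes within 2 positions of a member in the RefSeq gene order, 21 had a probe set of their own, and 0 were called by limma in either comparison with ground. Over all probe sets 4.89% and 1.81% were called in those comparisons. Between the in-flight groups 1 of the 21 was called, against 6.73% over all. It was SGT1A (AT4G23570), which encodes a co-chaperone of immune receptors and is the second gene after WRKY29. SGT1A was higher in last- than in first-actuated roots by 0.47 ± 0.09 (SE) on the log2 scale (limma adjusted p = 0.0133) and was singled out after its value had been seen. The gene between them, AT4G23560, differed by 0.13 ± 0.10 (limma adjusted p = 0.528).

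The other transcription factor families looked up, chosen after the WRKY values had been seen, were MYB, NAC, bHLH, ERF, bZIP, HSF and ARF. Of these, only bZIP and bHLH had at least 5 probe sets under a family symbol. Further families were not looked up. Of 17 bZIP genes, 4 were higher and 0 lower in last-actuated roots when the in-flight groups were compared, where 3.58% of all probe sets were higher and 3.15% lower. The median change of the bZIP genes there was -0.01. Against ground, 0 bZIP genes were higher and 2 lower in first-actuated roots (2.25% and 2.64% over all), and 2 were higher and 0 lower in last-actuated roots (0.927% and 0.881% over all). Of 6 bHLH genes, 0 were called either way between the in-flight groups, with a median of -0.01. Against ground, 1 bHLH gene was lower and 0 higher in first-actuated roots, and 0 were called in last-actuated roots.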
